A study of Mus musculus with 18 samples.

Results

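The claudins Cldn1, Cldn2, Cldn3, Cldn4, Cldn5, Cldn7, Cldn12, Cldn15, Cldn18 and Cldn23 were followed across every cell cluster of the adult mouse stomach, using the cluster labels and transcript counts that the authors deposited. The 10 genes were listed by name, and the rule sets no threshold on a measured value. Of these, 9 were measured among the 31201 gene names of both datasets together, and Cldn5 was not analysed here. In dataset 1 the 9 claudins held 25251 transcripts among 26114 gene names, and in dataset 2 they held 145314 transcripts among 29195 gene names.

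Claudins are tetraspan membrane proteins that form the strands of the tight junction, the seal between neighbouring epithelial cells. Some members close the paracellular space, and others line it with charge-selective pores, so the mix of claudins in a cell sets which ions and how much water can pass between cells. In the stomach the seal has to hold back luminal acid. Cldn18 has a lung and a stomach form that start from alternative first exons, and loss of the stomach form in mice lets acid leak into the mucosa. Cldn1, Cldn3, Cldn4, Cldn5 and Cldn7 are counted mainly among the sealing members, Cldn1 being known from the epidermis and Cldn5 from the endothelium of the brain. Cldn2 and Cldn15 form cation pores and are best known from kidney tubules and intestine. Cldn12 and Cldn23 are less well described, and Cldn12 lacks the tail motif with which most claudins bind scaffold proteins.

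The samples were 18 plates of single cells from untreated male WT C57BL/6J mice, 10 weeks of age by the methods, with no genetic or drug contrast between them. Dataset 1 held corpus and antrum gastric units in pools tube1 and tube2 (ToPro3(-) cells by the labels, where the methods name propidium iodide, 491 kept, 15 clusters), and dataset 2 held corpus units alone in pools K and T (Hoechst33342(+) and ToPro3(-) cells, 3993 kept, 20 clusters). Each pool joined cells of 3 mice, the paired pools were prepared by different operators, and collagenase and pronase were given in the opposite order in the 2 datasets, so that mouse, operator and pool cannot be told apart and neither can dataset and protocol. The pool was the replicate, with n = 2 in each dataset, and p-values measure the spread between pools only. Well barcodes were reused between pools, 103 of 296 in dataset 1 and 384 of 384 in dataset 2, so cells were identified by plate and barcode together.

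A kept cell held a median of 38757 transcripts in dataset 1 and 31020 in dataset 2, counted once each through a unique molecular identifier (UMI). Reads came from the 3′ end, so that a molecule gave a count whatever its length, and levels of different claudins can be set side by side. Pit, isthmus, neck, chief and parietal clusters carry the study's names. Other clusters are called "like" a cell type only where markers of that type led them: enterocyte-like (dataset 1 cluster 5-7), endocrine-like (dataset 1 cluster 9, a mix of Ghrl, Gast and Sst transcripts), enterochromaffin-like or ECL-like (dataset 2 cluster 14), D-like (16), X/A-like (17), tuft-like (dataset 1 cluster 14, which mast cell proteases also led, and dataset 2 cluster 15), and muscle-, stromal-, endothelial- and macrophage-like. Dataset 1 cluster 6, the antrum pre-pit cells, was led by the goblet cell genes Zg16, Tff3 and Muc2, which came from 2 of its 32 cells. Dataset 1 cluster 3, the neck cells, had Olfm4 among its leading genes. Dataset 2 cluster 11, placed in the isthmus, had the squamous keratin Krt5 among its leading genes, with 228 Krt5 UMIs in 1 of its cells. The comparisons of dataset 1 were also run without the cells that held at least 50 UMIs of Muc2 or Olfm4, 3 of the neck cluster, 1 of cluster 4-15 and 2 of the antrum pre-pit cluster.

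Levels are in CPM, the UMIs of a gene per 1000000 UMIs after adding up all cells of a type within a pool. Fold changes are log2 values with their standard error (SE) from edgeR's quasi-likelihood test on those sums, scaled by trimmed mean of M-values (TMM), and a gene was called when its Benjamini-Hochberg adjusted p over all genes tested was under 0.05. Because the clusters were drawn from the same counts, these p-values also reflect the clustering. TMM moved every fold of a comparison by a constant relative to plain CPM. That shift was 0.82 for chief against neck, 0.50 for parietal against isthmus and 0.38 for parietal cells of dataset 1. It was between −0.22 and 0.28 in the other comparisons with a fold that were also run with library totals. Pairs of neighbouring types outside these comparisons were fitted with TMM only. Fits tested 13894 genes over 12 sums in dataset 2 and 10229 genes over 14 sums in dataset 1. In each, 6 claudins passed the filter on low counts. Cldn2, Cldn7, Cldn12, Cldn15 and Cldn18 passed in both, with Cldn23 in dataset 2 and Cldn3 in dataset 1. In dataset 2 Cldn2 passed through the isthmus pools alone, at 1.16 and 1.93 CPM against at most 0.570 CPM in any other sum. A lower Cldn2 outside the isthmus was thus fixed by the filter.

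Cldn18 made up nearly all transcripts of the 9 measured claudins in the gastric epithelium. It held 138929 of the 145314 claudin UMIs in dataset 2, against 4959 for Cldn12, 648 for Cldn7, 394 for Cldn23, 148 for Cldn3, 104 for Cldn15, 93 for Cldn2, 30 for Cldn4 and 9 for Cldn1. Its share by type and pool lay between 94.0% and 97.1% in dataset 2. In dataset 1 the share was 95.1% or more in the corpus pit, antrum mature pit and parietal pools and in antrum pre-pit cells of tube1. It was lower in neck cells, at 79.9% in tube1 and 75.2% in tube2, in antrum pre-pit cells of tube2 (88.4%) and in cluster 4-15 of tube1 (87.8%). The summed claudin level was 339 and 407 CPM in chief cells of dataset 2 and between 929 and 1293 CPM in each pool of the other types there.

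**Figure D1:**
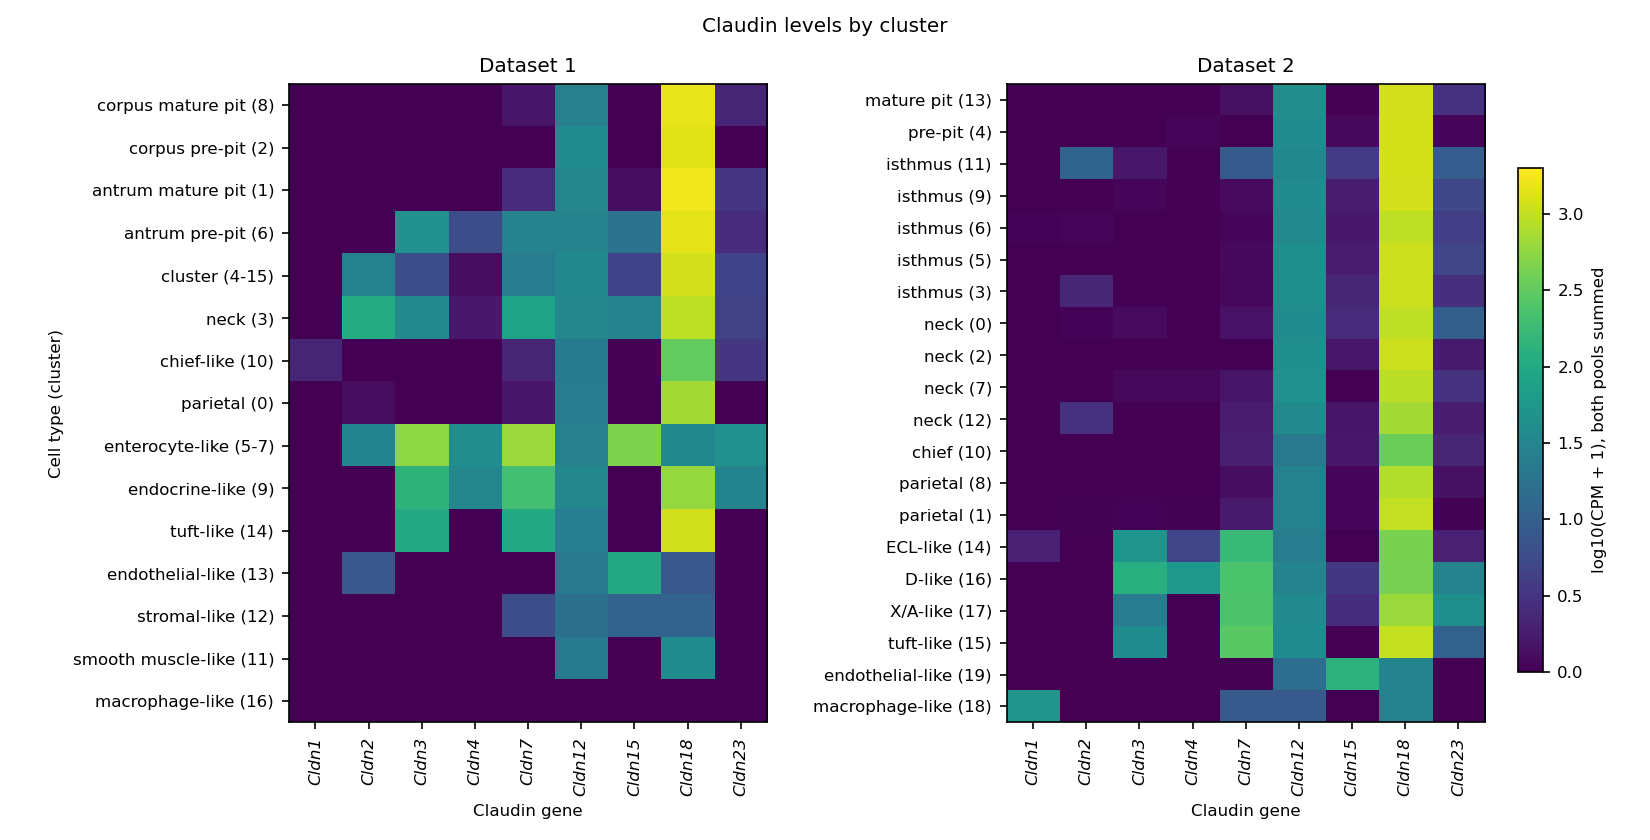
Claudin levels in every cluster of both datasets, as log10(CPM + 1) of the UMIs summed over both pools, with the 9 measured claudins on the x axis and clusters on the y axis. Cldn18 is high across the gastric epithelial rows, while Cldn3, Cldn7 and Cldn15 stand out in the enterocyte-like row, where Cldn18 falls to 33.6 CPM.

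**Figure D2:**
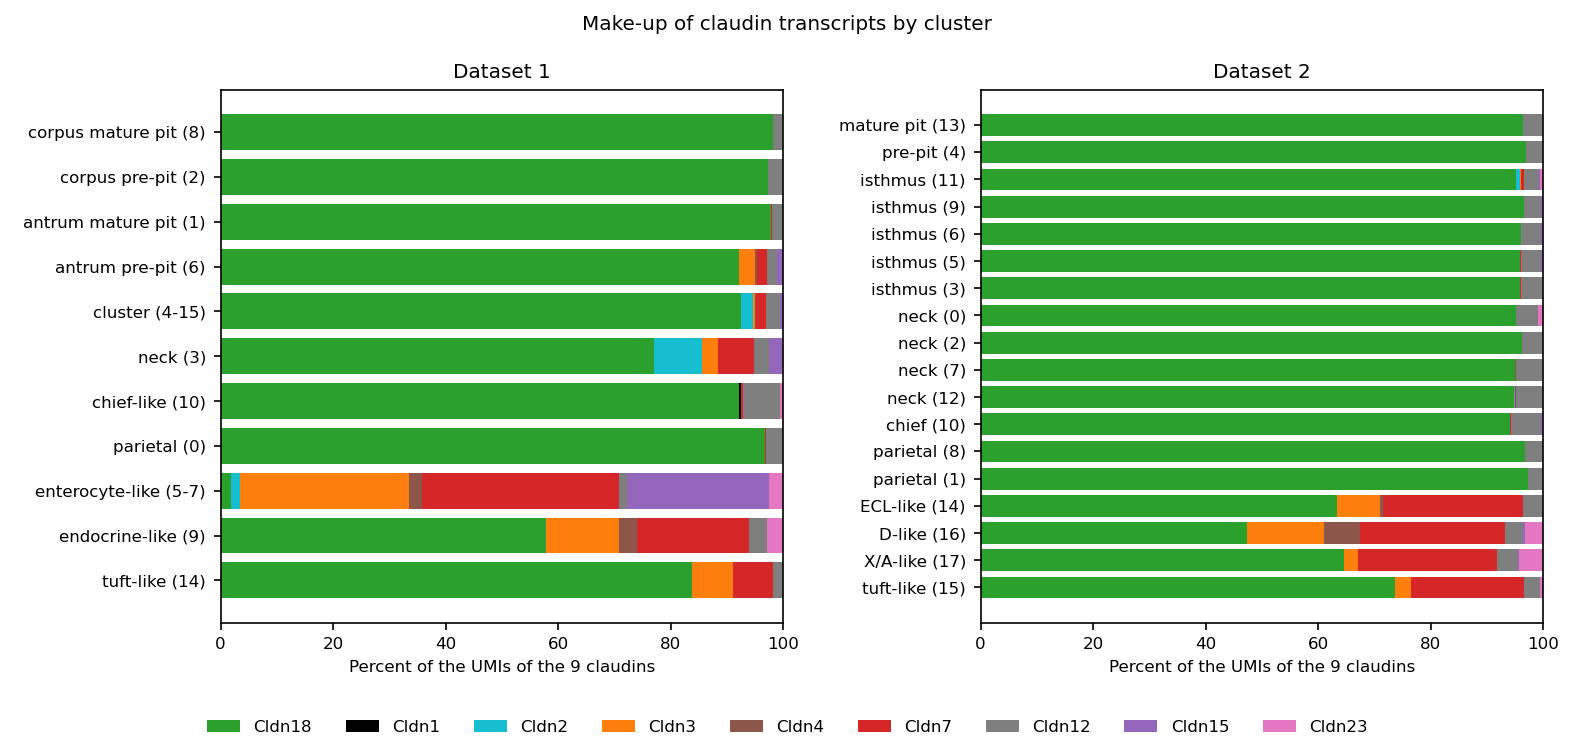
Make-up of the claudin transcripts in each cluster with at least 20 claudin UMIs, as stacked percentages of its claudin UMIs. Cldn18 fills the gastric epithelial bars, 47.4% of the D-like bar and 1.84% of the enterocyte-like bar.

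Cldn18 lies on chromosome 9 (GRCm39, chr9:99571514-99599320, minus strand) and has 4 transcripts of 5 exons in Gencode M39. On the minus strand, 2 of them begin at 99599320 and the others at 99592116 and 99592062, and the gene-level counts do not separate these starts. The 250 bases before each start are shown because this gene held most UMIs of the measured claudins in the gastric epithelium. They come from RefSeq windows of GRCm38.p6 matched exactly to GRCm39 and are read 5′ to 3′ on the gene's strand. They lie at chr9:99599321-99599570 and chr9:99592117-99592366 and overlap no annotated exon. Capitals mark AGATAA or its reverse complement TTATCT, the core read by GATA factors.
Cldn18 upstream start: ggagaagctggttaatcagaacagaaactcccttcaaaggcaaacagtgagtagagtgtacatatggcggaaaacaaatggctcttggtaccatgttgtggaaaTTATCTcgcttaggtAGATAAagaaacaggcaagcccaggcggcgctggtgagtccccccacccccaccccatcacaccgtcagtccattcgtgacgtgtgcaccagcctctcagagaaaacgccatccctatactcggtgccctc
Cldn18 downstream start: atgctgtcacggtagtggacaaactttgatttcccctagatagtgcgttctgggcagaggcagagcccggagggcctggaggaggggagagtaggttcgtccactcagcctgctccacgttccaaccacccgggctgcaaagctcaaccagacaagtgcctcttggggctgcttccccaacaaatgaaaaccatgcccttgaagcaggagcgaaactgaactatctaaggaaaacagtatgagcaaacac
The upstream window held the motif in both orientations, and the downstream window held none of the 4 motifs searched on both strands. Over the same 250 bases of 32851 RefSeq promoters, AGATAA was found in 9.99%, GGGCGG in 32.7%, TATAAA in 12.4% and TTTATG, a caudal-factor core, in 10.8%. TATAAA and CATAAA, the reverse complement of TTTATG, differ in their first letter, so a stretch of bases can match only 1 of them. A match describes letters only.

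By CPM over whole cell types, Cldn18 was highest in pit cells and lowest in chief cells. In dataset 2 it was 1160 and 1256 CPM in pre-pit cells of pools K and T, 1157 and 1186 in mature pit cells, 1120 and 1071 in isthmus cells, 1006 and 936 in neck cells, 958 and 901 in parietal cells, and 319 and 383 in chief cells. The chief pools lay apart from every other type, and the ranges of the pit types overlapped each other. Median levels in single cells followed the same pattern at the ends, with 11.97 Cldn18 UMIs per 10000 UMIs in pre-pit cells (quartiles 9.95 and 13.9, 291 cells) and 2.89 in chief cells (quartiles 2.20 and 3.72, 180 cells). In dataset 1 the gene stood at 1741 and 1564 CPM in antrum mature pit cells of tube1 and tube2, 1614 and 1412 in corpus mature pit cells, 1438 and 1542 in antrum pre-pit cells, 1331 and 1443 in corpus pre-pit cells, 1152 and 1224 in cluster 4-15, 921 and 972 in neck cells, and 744 and 709 in parietal cells. The 4 pit types overlapped as a group and lay above cluster 4-15 in both pools. The 21 chief-like cells of dataset 1 cluster 10, not part of that fit, had 291 and 346 CPM.

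Among neighbours in these orders, 1 of 6 differed in dataset 1 and 3 of 5 in dataset 2. In dataset 1 the called step was between corpus pre-pit cells and cluster 4-15. In dataset 2 mature pit lay above isthmus (log2 fold change 0.45, edgeR adjusted p = 0.0040) and parietal above chief (1.02, adjusted p = 2e-06). These folds include the TMM shift, and neither pair was run with library totals. Mean CPM was 1171 in mature pit and 1095 in isthmus cells. Pre-pit and mature pit, like isthmus and neck, did not differ beyond their spread. Neck and parietal cells differed by −0.38 (adjusted p = 0.0057), which places parietal cells above neck cells after TMM scaling although their CPM was lower. On that scale parietal cells were also not called different from mature pit cells (mature pit minus parietal 0.18 ± 0.10, adjusted p = 0.165) or from pre-pit cells (parietal minus pre-pit −0.088 ± 0.10, adjusted p = 0.489). Over all pairs of types, 15 of 21 were called in dataset 1 and 11 of 15 in dataset 2.

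**Figure D3:**
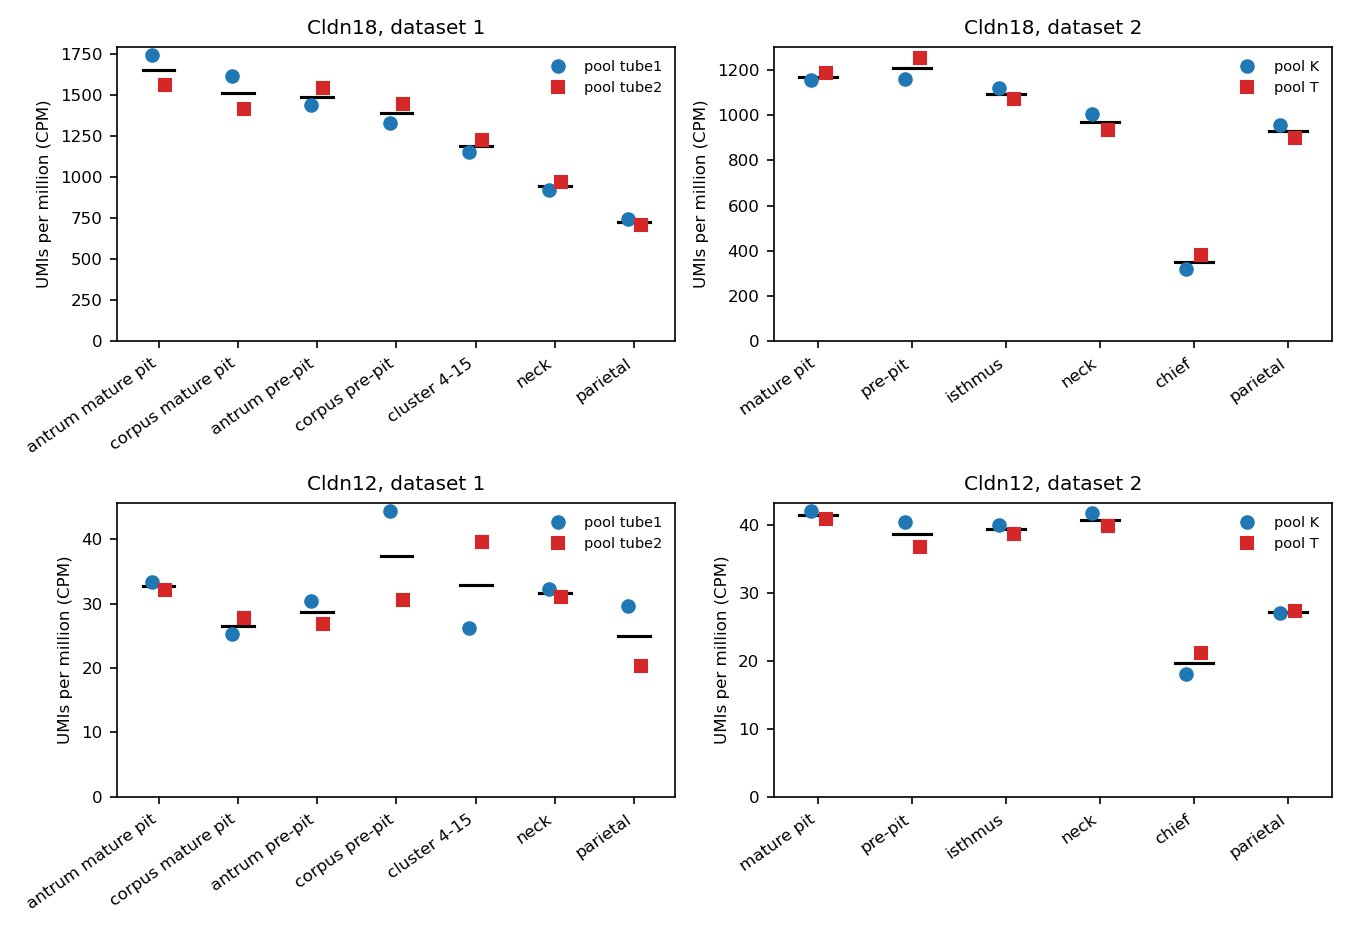
Cldn18 (upper panels) and Cldn12 (lower panels) in CPM by cell type, 1 point for each pool and a bar at the mean of the 2 pools, with the y axes starting at 0. The 2 chief pools have the lowest Cldn18 in dataset 2 at 319 and 383 CPM, and Cldn12 stays between 18.1 and 42.0 CPM in that dataset.

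Cldn12 (chr5:5539537-5564995, minus strand) was the second most abundant of the 9 measured claudins in the gastric epithelium of dataset 2. In dataset 2 it had 42.0 and 40.9 CPM in mature pit, 41.7 and 39.8 in neck, 40.0 and 38.7 in isthmus, 40.4 and 36.8 in pre-pit, 27.1 and 27.4 in parietal and 18.1 and 21.2 in chief cells. Parietal and chief pools lay below the other 4 types on this scale. After TMM scaling neither chief against neck (−0.22 ± 0.11 SE, edgeR adjusted p = 0.193) nor parietal against isthmus (−0.03 ± 0.08, adjusted p = 0.763) passed, whereas with library totals alone both did, at −1.04 and −0.53, so that the call rests on the scaling. The called neighbour step was mature pit over neck after TMM scaling (0.31, adjusted p = 0.0218). The CPM of these 2 types overlapped, and the pair was not run with library totals. In dataset 1 the type means ran from 24.9 to 37.4 CPM and 0 of 21 pairs were called. Cldn2 and Cldn7 lay above Cldn12 in both pools of neck cells there. In antrum pre-pit cells mean Cldn3 was 52.1 CPM against 28.6 for Cldn12. A gene on the opposite strand, Gm30325, overlaps Cldn12, as Gm16004 does Cldn18.

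The first comparison asked how claudins differ as isthmus progenitors give way to pit cells. In dataset 2 pre-pit cells had slightly more Cldn18 than isthmus cells and fewer transcripts of 3 minor claudins. Cldn18 rose by 0.35 ± 0.10 (SE, edgeR adjusted p = 0.0217). Cldn23 had 200 UMIs in isthmus cells, at 2.88 and 4.50 CPM, and 1 UMI in pre-pit cells, a ratio of 36.1 with a 95% counting interval of 6.40 to 1432 (adjusted p = 0.0072). Cldn2 had 84 UMIs against 0 and was at least 5.05-fold lower in pre-pit cells (adjusted p = 0.0407), and Cldn7 had 56 against 0 and was at least 3.37-fold lower (adjusted p = 0.0417). These bounds set a count of 0 at 3 UMIs over both pools and take UMIs as independent. The Cldn2 UMIs lay in 9 and the Cldn7 UMIs in 19 of 1285 isthmus cells, so the bounds leave out the spread between cells. The direction of Cldn2 was also fixed by the filter. Of the Cldn2 UMIs in the isthmus, 67 came from 6 cells of cluster 11, and 15 came from 1 cell of cluster 3. Of the Cldn7 UMIs there, 17 and 12 were in single cells of cluster 11, and 10 were in pool K against 46 in pool T. Cldn12 (0.18 ± 0.09, adjusted p = 0.146) and Cldn15 (2 against 58 UMIs, adjusted p = 0.0814) did not pass. The 4 calls among 6 tested compare with 27.8% of all genes in this contrast, 12.3% higher and 15.5% lower in pre-pit cells. Without pool K the calls were Cldn7 and Cldn23, and without pool T there were 0. With library totals Cldn18 was at 0.14 and not called while Cldn15 was, which turned 1 higher and 3 lower into 0 and 4.

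Junction genes around the claudins moved in both directions in this contrast. The tight junction partners, scaffold and accessory proteins of the same strands, had 3 of 21 tested members higher and 2 lower in pre-pit cells, with a median of 0.05 beside 0.00 for all genes. Cxadr, an adhesion protein of the junction, rose by 0.40 ± 0.10 and Tjp3, a scaffold that binds claudin tails, by 0.38 ± 0.13, while Cgnl1, a junctional linker to actin, fell by 0.44 on the log2 scale and Mpdz, a PDZ scaffold, also fell. Adherens junction and claudin-binding adhesion genes had 5 of 11 higher and 2 lower (median 0.15). Ctnna1 and Jup, which link cadherins to the cytoskeleton, rose by 0.54 and 0.48, and Nectin1, a cell adhesion receptor, and Epcam, which binds and stabilizes claudins, fell by 0.72 and 0.35. Of the regulators known from other epithelia, 3 of 11 were higher and 3 lower (median −0.13). The transcription factor Klf4 and the protease Prss8 rose by 0.79 and 0.46, and Ovol1 and Wnk1 fell by 0.86 and 0.38. All these calls are edgeR's with adjusted p under the 0.05 threshold.

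Dataset 1 gave the same contrast for corpus pre-pit cells against cluster 4-15, a merged cluster led by cell cycle genes such as Ube2c, Top2a and Mki67. Cldn18 was higher in pre-pit cells by 0.48 ± 0.12 (edgeR adjusted p = 0.0104), in both pools. Cldn2 had 83 UMIs in cluster 4-15 and 0 in pre-pit cells, at least 20.8-fold lower (adjusted p = 0.0313), and Cldn7 had 70 and 0, at least 17.6-fold lower (adjusted p = 0.0094). These UMIs lay in 6 and 5 of 53 cells, and the bounds leave out the spread between cells. The Cldn2 UMIs were nearly all in tube1, at 61.3 CPM against 0.590 in tube2, as were those of Cldn7 at 47.9 against 3.54. These 3 calls of 6 tested stand beside 20.4% of all genes, 9.6% higher and 10.8% lower. Without tube1 there were 0 calls and without tube2 there were 2, Cldn2 and Cldn7. Without the Olfm4-bearing cell of cluster 4-15, Cldn7 was not called, and with library totals Cldn18 was at 0.22 and not called. Tight junction partners had 4 of 20 higher and 0 lower, with Magi1 at 0.70 and Cxadr at 0.69. Adhesion genes had 3 of 11 higher and 1 lower, with Ctnna1 at 0.69, Jup at 0.65 and Epcam at −0.93. Of the regulators, Prss8 at 0.83 and Klf4 at 0.50 were higher and Klf5, an intestinal and gastric crypt factor, at −0.51 was lower.

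No claudin was called between pre-pit and mature pit cells of the corpus. In dataset 2, edgeR called 0 of 6 claudins at the adjusted threshold, 1 of 6 at an unadjusted p under 0.05 and 10.4% of all genes (6.52% higher and 3.84% lower), and DESeq2 also called 0. Cldn18 differed by 0.09 ± 0.10 (adjusted p = 0.666) and Cldn12 by 0.24 ± 0.11 (adjusted p = 0.209). Cldn23 had 10 UMIs in mature pit cells and 1 in pre-pit cells (adjusted p = 0.113), and it passed when the pool entered the fit as a replicate block. Corpus maturation in dataset 1 also gave 0 of 6 calls, 1 at an unadjusted p under 0.05, beside 12.9% of all genes (7.08% higher and 5.86% lower), and DESeq2 called 0. Cldn18 was higher by 0.32 ± 0.12 there (adjusted p = 0.104), with 0.54 and a call when tube2 was left out. The adhesion gene Epcam fell in both datasets, by 0.78 and 0.87 on the log2 scale, while Ybx3, a junction-bound RNA-binding protein, fell by 0.88 and Cxadr by 0.65 and Tjp3 rose by 0.43 in dataset 1 alone at the threshold, a difference between datasets that was not tested. Nectin1 fell in dataset 1, and Cgnl1 fell by 0.55 in dataset 2.

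In the antrum, mature pit cells had more Cldn18 than pre-pit cells and fewer transcripts of Cldn3 and Cldn7. Cldn18 rose by 0.42 ± 0.13 (edgeR adjusted p = 0.0301). Cldn3 had 55 UMIs in antrum pre-pit cells, at 19.4 CPM in tube1 and 84.8 in tube2, and 0 in mature pit cells, at least 46.7-fold lower (adjusted p = 0.0026). Cldn7 had 34 UMIs, at 16.6 and 45.5 CPM, against 5, a change of −3.80 ± 1.13 (adjusted p = 0.031). These 3 of 6 calls stand beside 14% of all genes, 8.29% higher and 5.66% lower in mature pit cells. The 2 Muc2-bearing cells of the pre-pit cluster, without any Cldn18 UMI, held 105 of its 109 UMIs of Cldn2, Cldn3, Cldn7 and Cldn15, and without them 0 calls were left, Cldn18 being at 0.37 (adjusted p = 0.0608). Without tube1 the call was Cldn3 and without tube2 there were 0, and with library totals Cldn18 was at 0.15 and not called while Cldn15 was, which made 0 higher and 3 lower. Magi3 and Patj, PDZ scaffolds of the junction, rose by 1.13 and 0.84, Ctnna1 by 0.70, Ctnnb1 by 0.54 and Klf4 by 0.50, and Ybx3, Epcam and Klf5 fell by 0.58, 0.62 and 0.56. In list terms these were 3 higher and 1 lower of 20 partners, 2 and 1 of 11 adhesion genes, and 1 and 1 of 11 regulators.

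No claudin passed edgeR's threshold between antrum and corpus pit cells. Over mature and pre-pit cells together, edgeR called 0 of 6 claudins, 1 at an unadjusted p under 0.05, beside 9.24% of all genes (5.48% higher and 3.75% lower in the antrum). Cldn18 differed by 0.10 ± 0.09 (adjusted p = 0.583). DESeq2 called 1, Cldn7, with 39 of the 40 UMIs in the antrum, of which 32 were in the Muc2-bearing cells. Whether maturation differed between antrum and corpus was tested as an interaction, which called 0 claudins, 0 at an unadjusted p under 0.05, and 0.0293% of all genes (0.0196% higher and 0.00978% lower), Cldn18 being at 0.10 ± 0.18 (adjusted p = 0.989), and DESeq2 called 0. Among the other junction genes Epcam was higher in antrum pits by 0.89, Klf5 by 0.52, Klf4 by 0.39 and Ctnnb1 by 0.35, and Magi1 and Cxadr were lower by −0.96 and −0.67. These were 2 of 20 partners lower, 2 of 11 adhesion genes higher and 2 of 11 regulators higher, and the interaction called 0 in each list.

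Neck cells, the mucous cells below the isthmus, differed from isthmus cells in 1 claudin of 6 in dataset 2. Cldn2 had 8 UMIs in neck cells and 84 in isthmus cells, a change of −2.36 ± 0.76 (edgeR adjusted p = 0.0236). Of all genes 50.7% were called, 26.4% higher and 24.3% lower in neck cells. The isthmus UMIs of Cldn2 lay in 9 of 1285 cells. Cldn2 passed the filter through the isthmus alone, so its direction was fixed in advance. The call was lost without either pool. Cldn18 (−0.11 ± 0.10, adjusted p = 0.400), Cldn12 (0.12 ± 0.08, adjusted p = 0.226), Cldn15 (24 against 58 UMIs, adjusted p = 0.565), Cldn7 (11 against 56 UMIs, adjusted p = 0.103) and Cldn23 (126 against 200 UMIs, adjusted p = 0.538) did not pass. Tight junction partners had 4 of 21 higher and 5 lower, with Cgnl1 at 1.12 ± 0.09, Patj at 0.48 and Ybx3 at −0.90. Adhesion genes had 1 of 11 higher, Epcam at 0.31, and 5 lower, led by Nectin1 at −0.59 and Jup at −0.57. Of the regulators 4 of 11 were higher and 3 lower. Wnk4, a kinase that phosphorylates claudins in the kidney, was at 1.18, Klf5 at 0.78 and Klf4 at −1.79.

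In dataset 1 the neck cluster carried more Cldn3, Cldn7 and Cldn15 than cluster 4-15. Cldn3 was at 32.2 CPM in tube1 and 36.6 in tube2 in neck cells, against 11.2 and 0 in cluster 4-15 (2.75 ± 0.83, edgeR adjusted p = 0.0223). Cldn7 was at 56.4 and 96.5 CPM against 47.9 and 3.54 (1.69 ± 0.58, adjusted p = 0.0362), and Cldn15 at 6.45 and 44.4 against 8.23 and 0 (2.84 ± 1.01, adjusted p = 0.0465). Cldn2 was at 98.4 and 110 CPM in neck cells (1.85 ± 0.71, adjusted p = 0.0642), and Cldn18 was lower by −0.32 ± 0.13 (adjusted p = 0.0666). The 3 calls of 6 stand beside 29.3% of all genes, 13.1% higher and 16.2% lower in neck cells. With the pool as a replicate block Cldn2 was called (2.22, adjusted p = 0.011) and Cldn15 was not (2.61, adjusted p = 0.0538). Without the 3 neck cells and the cluster 4-15 cell that held at least 50 Olfm4 UMIs, 0 claudins were called. DESeq2 called 0, and leaving out tube1 gave 4 calls and tube2 gave 0. The junction lists moved as in dataset 2 for Cgnl1 (1.89), Epcam (0.74), Wnk4 (2.45), Klf5 (0.79), Ybx3 (−0.82), Jup (−0.92) and Klf4 (−2.26), beside Marveld3 at 2.42, Tjp3 at −0.75 and Ctnna1 at −0.67. The counts were 3 higher and 3 lower of 20 partners, 1 and 2 of 11 adhesion genes, and 3 and 1 of 11 regulators.

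Chief cells, the pepsinogen-secreting cells at the gland base, had the least Cldn18 of the gastric types. It was at 319 and 383 CPM in pools K and T against 1006 and 936 in neck cells, and the groups did not overlap. The fitted change was −0.65 ± 0.11 (SE, edgeR adjusted p = 0.0003), and −1.47 with library totals, the largest shift of scale among the comparisons. It was called without either pool, at −0.48 without K and −0.87 without T, and by DESeq2 at −0.58. It was the single call of 6 tested, against 38.6% of all genes, 18.6% higher and 19.9% lower. Cldn23 had 8 UMIs against 126 (adjusted p = 0.333), Cldn7 6 against 11, Cldn15 4 against 24 and Cldn2 0 against 8. With library totals Cldn12 and Cldn23 (−1.84) were called as well, which makes 3.

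The same contrast lowered most junction genes beside Cldn18. Of the adhesion genes 10 of 11 were lower and 0 higher, with a median of −0.83 beside −0.07 for all genes, led by Nectin3 at −2.08 and Epcam at −1.60. Tight junction partners had 12 of 21 lower and 2 higher (median −0.35), with Cxadr at −1.57 and Tjp3 at −1.42 among the lower and Marveld3, a tetraspan protein of the junction, at 3.51 ± 0.34 and Ybx3 at 0.61 the higher ones. Regulators had 7 of 11 lower and 2 higher (median −0.86), with Klf5 at −2.30 and Klf4 at −1.58 against Wnk4 at 1.14. On library totals each fold is lower by the shift of 0.82, which turns 1 higher partner, Ybx3, and 1 higher regulator negative and no lower gene positive.

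**Figure D4:**
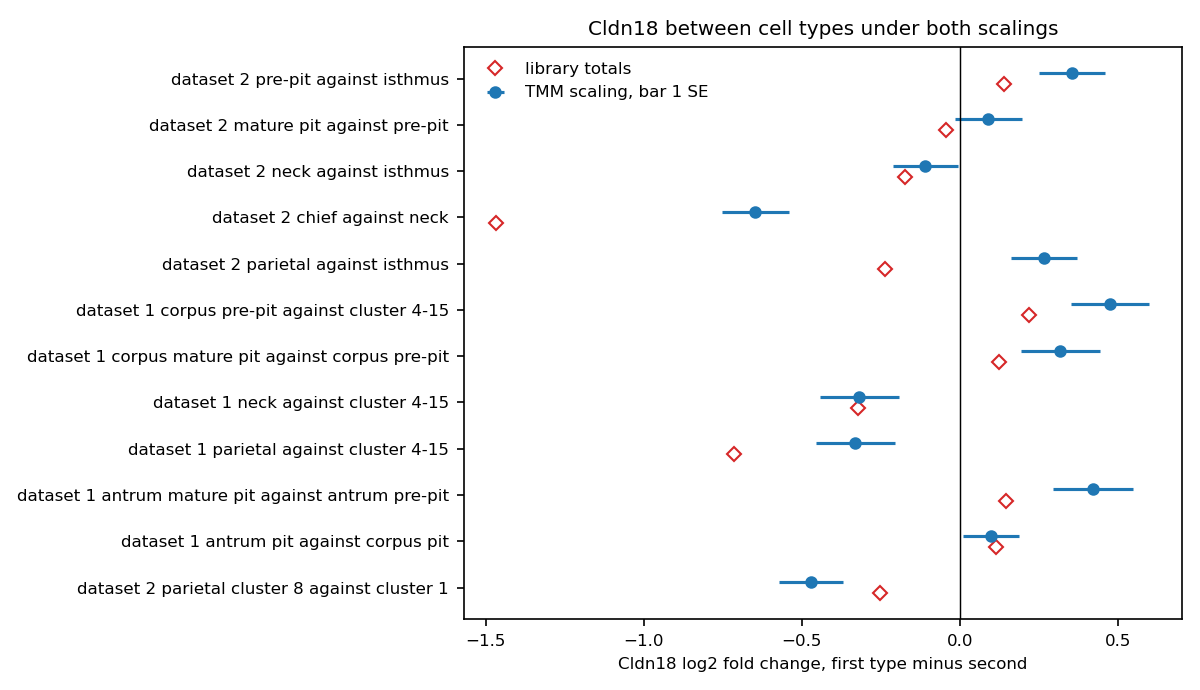
Cldn18 log2 fold change in each comparison of cell types, with TMM scaling (± 1 SE) and with library totals alone. Chief against neck lies at −0.65 and −1.47, and parietal against isthmus in dataset 2 crosses 0, from 0.27 to −0.24.

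Parietal cells, which secrete acid, had 4 called claudins of 6 against isthmus cells in dataset 2, where 71.8% of all genes were called, 35.2% higher and 36.7% lower. Cldn23 had 6 UMIs against 200 (−3.84 ± 0.70, edgeR adjusted p = 0.0002), and Cldn15 had 5 against 58 (−2.35 ± 0.60, adjusted p = 0.0034). Cldn2 had 1 against 84, a ratio of 54.8 in favour of the isthmus (counting interval 9.56 to 2189, adjusted p = 0.0025). The 84 UMIs lay in 9 of 1285 cells, a spread that the interval leaves out, and the direction of Cldn2 was fixed by the filter. Cldn18 was called at 0.27 ± 0.10 (adjusted p = 0.033) after TMM scaling, but its CPM was lower in parietal cells in both pools and with library totals the fold reversed to −0.24 (adjusted p = 0.0362), so no direction is given for it. That scaling also called Cldn12, which made 0 higher and 5 lower. Without pool K or without pool T the call was Cldn23 alone. Cldn7 had 20 UMIs against 56 (adjusted p = 0.629). In dataset 1 parietal cells against cluster 4-15 gave 3 calls of 6, beside 60.3% of all genes, 28.3% higher and 32% lower. Cldn18 was lower, at 744 and 709 CPM against 1152 and 1224 (−0.33 ± 0.12, adjusted p = 0.0287), and the pools did not overlap. Cldn2 had 1 UMI against 83 (adjusted p = 0.0080) and Cldn7 had 2 against 70 (adjusted p = 0.0026). Without tube1 there were 0 calls, without tube2 the calls were Cldn2, Cldn3 and Cldn7, and without the Olfm4-bearing cell Cldn7 was not called.

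The junction lists split in parietal cells of both datasets. Tight junction partners had 10 of 21 higher and 9 lower in dataset 2 and 9 of 20 higher and 7 lower in dataset 1. Marveld3 was higher by 3.63 ± 0.28 and 2.59 ± 0.65 and Prkcz, a polarity kinase, by 2.25 and 2.62, and Tjp3 was lower by −1.48 and −2.42. Mpdz in dataset 2 (−2.91) was lower too. Adhesion genes were lower in 9 of 11 in dataset 2, with Ctnnb1 at 0.31 the 1 higher gene, and in 10 of 11 in dataset 1. Nectin1 was at −3.09 and −3.58, Epcam at −1.38 in dataset 2 and Nectin3 at −2.29 in dataset 1. Regulators had 3 higher and 3 lower of 11 in each dataset. Wnk4 was at 3.40 and 4.58 and St14, a membrane protease that acts on Prss8, at 0.93 and 0.68, against Hnf4a, a hepatocyte and gut factor, at −2.73 and −3.67 and Klf4 at −3.74 and −4.64. With library totals each fold is lower by 0.50 in dataset 2, which turns 2 of the 10 higher partners, 1 of the 3 higher regulators and Ctnnb1 negative, and by 0.38 in dataset 1, which turns none of the called members.

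Within parietal cells Cldn18 differed between the 2 clusters of dataset 2. It was at 819 and 839 CPM in cluster 8 and at 1024 and 949 in cluster 1, without overlap (−0.47 ± 0.10, edgeR adjusted p = 0.001), the single call of 5 claudins tested, against 27.2% of all genes (12.3% higher and 14.9% lower in cluster 8). Without pool K it was −0.35 and not called. Cldn12 did not pass (−0.23 ± 0.10, adjusted p = 0.0881). Here 2 of 21 partners were higher (Ybx3 at 0.36 and Crb3, an apical polarity protein, at 0.32) and 6 lower (Marveld3 at −0.95, Cgnl1 at −0.78), 3 of 11 adhesion genes were lower (Cdh1 at −0.38, Ctnna1 at −0.37), and 2 of 11 regulators were higher (Klf4 at 0.95, Ovol1 at 0.71) and 3 lower (Hnf4a at −0.77, St14 at −0.50).

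The 5 isthmus clusters of dataset 2 differed in 4 of the 5 claudins tested, with 53.7% of all genes called by the same F test. Cldn18 ran from 1362 and 1121 CPM in cluster 11 and 1226 and 1146 in cluster 9 to 1006 and 947 in cluster 6, a cluster led by the S phase genes Rrm2 and Pclaf (edgeR adjusted p = 0.0159). Clusters 5 (1103 and 1132) and 3 (1085 and 1055) lay between. Clusters 11 and 9 overlapped the pit types, which had 1160 and 1256 CPM in pre-pit and 1157 and 1186 in mature pit cells. Cldn12 went the other way round for cluster 11, which had 34.2 and 33.4 CPM beside 42.4 and 43.2 in cluster 5 (adjusted p = 0.0272). Cldn23 was highest in cluster 11 at 10.8 and 6.51 CPM and lowest in cluster 3 at 1.26 and 2.49 (adjusted p = 0.0199). Cldn2 was at 4.58 and 14.6 CPM in cluster 11 and at 0 in clusters 5 and 9 (adjusted p = 0.0002). Cldn15 had 58 UMIs in all and did not pass (adjusted p = 0.127). Without pool K the calls were Cldn2 and Cldn7, without pool T they were Cldn2 and Cldn23, and DESeq2 called Cldn18 and Cldn7.

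Among the 4 neck clusters Cldn18 fell from cluster 2 to cluster 12. It was at 1137 and 1102 CPM in cluster 2, 1034 and 942 in cluster 0, 934 and 878 in cluster 7 and 731 and 706 in cluster 12, which the chief cell genes Cblif and Pga5 led (edgeR adjusted p = 0.0358). The 4 pairs of pools did not overlap. Cldn23 was at 5.93 and 10.4 CPM in cluster 0, in 69 of its 471 cells, and at most 2.31 CPM in any pool of the other 3 (adjusted p = 0.0007). Cluster 0, led by Ccn1, Hes1 and Edn1, held 135 cells of pool K and 336 of pool T, so the neck sums of the pools differed in cluster mix. These were 2 of 5 claudins, beside 25.1% of all genes, and neither was called when a pool was left out. Of the lists, 16 of 21 partners, 11 of 11 adhesion genes and 8 of 11 regulators differed among isthmus clusters, and 6, 6 and 4 among neck clusters.

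At the level of cells Cldn18 was close to universal in the gastric epithelium. Of 3826 such cells in dataset 2, 3825 had a Cldn18 UMI, and the 1 without, in cluster 11 of pool T, held 228 UMIs of Krt5. In dataset 1, 323 of 329 cells (98.2%) had 1. Of the 6 without, 3 were in the neck cluster and held 246 to 784 Olfm4 UMIs and 0 of Muc6, the neck mucin, 1 was in cluster 4-15 with 52 Olfm4 UMIs, and 2 were in the antrum pre-pit cluster with 833 and 218 UMIs of the goblet mucin Muc2. Olfm4 marks stem cells of the small intestine. The share with a Cldn18 UMI in cell types that should lack it was 3 of 18 muscle-like cells (16.7%), 2 of 15 stromal-like (13.3%), 1 of 15 endothelial-like (6.67%) and 0 of 8 macrophage-like in dataset 1, the last of which allows up to 37.5%, and 4 of 13 macrophage-like (30.8%) and 2 of 9 endothelial-like (22.2%) in dataset 2. Median depth there was 7819 to 12625 UMIs a cell, below the 20520 to 64127 of the gastric epithelial types. Thinned to 10000 UMIs, 1.12 to 1.66 of the 9 claudins were found per gastric epithelial cell.

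Cldn2, Cldn3, Cldn7 and Cldn15 sat in few gastric epithelial cells. In dataset 1, 12 of 329 cells had at least 5 UMIs of the 4 genes together and held 96.6% of their 678 UMIs. The 6 cells without Cldn18 carried Cldn3, Cldn7 and Cldn15, with 13 to 40, 11 to 49 and 2 to 23 UMIs each, and the 4 with Olfm4 also carried 4 to 36 of Cldn2. The other 6 had 27 to 78 Cldn18 UMIs, 0 of Cldn3 and Cldn15, 7 to 48 of Cldn2 in 5 of them, 6 to 31 of Cldn7 in 4 and 113 to 2119 UMIs of Gkn3, a gastrokine of neck and deep antral gland cells. The neck cluster and cluster 4-15 thus held Cldn2 both in cells with Cldn18 and in cells with Cldn3, Cldn7 and Cldn15 in its place. In dataset 2, 9 of 3826 cells reached 5 UMIs and held 45.9% of 292 UMIs, 7 of them in cluster 11, where they had 111 of the cluster's 135. All 9 had 7 or more Cldn18 UMIs and at most 1 of Olfm4.

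**Figure D5:**
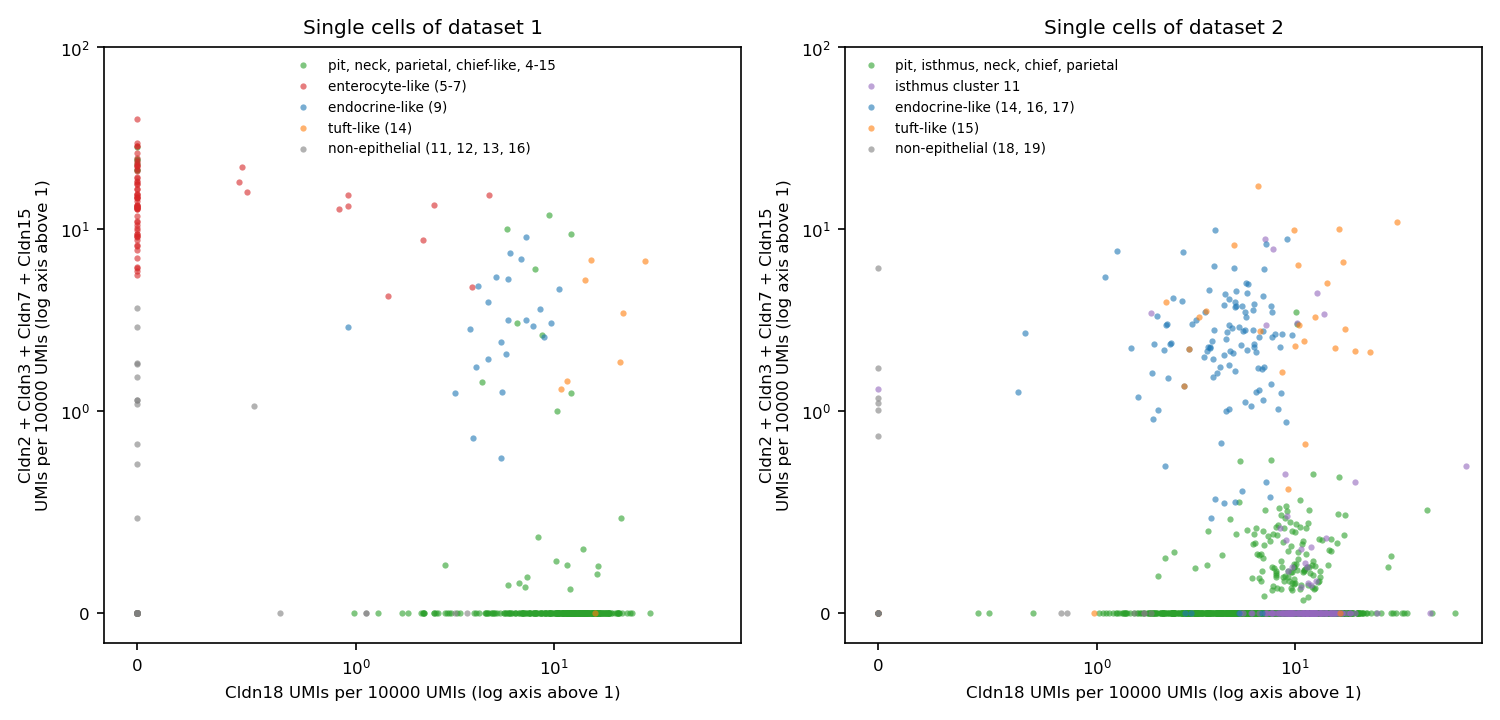
Each kept cell by its Cldn18 UMIs (x axis) and its summed Cldn2, Cldn3, Cldn7 and Cldn15 UMIs (y axis), both per 10000 UMIs and on symmetric log scales. Gastric epithelial cells lie along the bottom at right. Of the 70 enterocyte-like cells, the 59 without a Cldn18 UMI stand at upper left. The 6 gastric epithelial cells of dataset 1 without Cldn18 stand with them.

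The enterocyte-like cluster of dataset 1, 70 cells led by Apoa4, Fabp1 and Alpi although the labels name only corpus and antrum as the tissue, had a claudin set nearly opposite to that of the pits. Cldn7 was at 761 and 593 CPM, Cldn3 at 560 and 543, and Cldn15 at 355 and 502, each in 68 or 69 of the 70 cells, and Cldn3 and Cldn7 were together in 69. Cldn23 was at 60.7 and 40.9 CPM, Cldn4 at 119 and 10.4, Cldn2 at 9.34 and 37.4, Cldn12 at 18.7 and 28.7 and Cldn18 at 11.7 and 41.7. Cldn4, Cldn2 and Cldn18 differed most between the pools. Cldn4 was found in 9 and Cldn2 in 8 of the 70 cells, and 34 of the 53 Cldn18 UMIs were in 1 cell. The share of cells with a Cldn18 UMI, 11 of 70 (15.7%, at a median of 17439 UMIs), was within the range of the muscle-, stromal- and endothelial-like cells. Cells thinned to 10000 UMIs (61 left) had 3.79 of the 9 claudins on average.

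Against antrum mature pit cells, a gastric surface type of the same dataset, 7 of 8 claudins tested were called, beside 35.7% of all genes, 17.7% higher and 18% lower. Cldn3 had 865 UMIs against 0 and was at least 561-fold higher. Cldn15 had 729 against 1, a ratio of 1419 (254 to 56125), and Cldn7 1008 against 5 (8.62 ± 0.62). Cldn23 (73 against 7, 4.39 ± 0.65) was higher too. So were Cldn4 (63 against 0, at least 40.9-fold higher, edgeR adjusted p = 0.0002) and Cldn2 (47 against 0, at least 30.5-fold, adjusted p = 0.0020), found in 9 and 8 enterocyte-like cells. Cldn18 was lower by −5.63 ± 0.33, with 53 UMIs against 5139, and Cldn12 did not pass (−0.28 ± 0.31, adjusted p = 0.542). Leaving out a pool kept 6 calls, without Cldn4 when tube1 was left out and without Cldn2 when tube2 was. Partners had 3 of 24 higher and 7 lower (Marveld3 at 6.47, Prkcz at 1.08, Ybx3 at −1.81, and Cgnl1 lower), adhesion genes 4 and 4 of 11 (Nectin3 at 2.76, Nectin1 at 2.74, Vcl at −1.72, Jup at −1.38), and regulators 6 and 3 of 13 (Ovol1 at 1.86, Hnf4a at 1.29, Grhl2 at −2.25, Prss8 at −1.99).

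The promoters of Cldn4 and Cldn7 are shown because these sealing claudins were rare in pit, neck and parietal cells. Cldn7 was found in most enterocyte-like and endocrine-like cells, and Cldn4 in fewer. In dataset 1 Cldn4 was found in 9 of 70 enterocyte-like and 3 of 24 endocrine-like cells. In dataset 2 it was found in 10 of 31 D-like, 1 of 53 ECL-like and 0 of 29 X/A-like cells. Cldn4 (chr5:134973973-134975788, minus strand) and Cldn3 (chr5:135015068-135016326, plus strand) are 39279 bases apart with 2 genes between them, and Cldn7 lies at chr11:69852648-69858711 on the plus strand. The windows are the 250 bases before a start, at chr5:134975789-134976038 and chr11:69855355-69855604 (GRCm39, from RefSeq windows of GRCm38.p6), and overlap no annotated exon. Capitals mark CCGCCC, the reverse complement of GGGCGG.
Cldn4: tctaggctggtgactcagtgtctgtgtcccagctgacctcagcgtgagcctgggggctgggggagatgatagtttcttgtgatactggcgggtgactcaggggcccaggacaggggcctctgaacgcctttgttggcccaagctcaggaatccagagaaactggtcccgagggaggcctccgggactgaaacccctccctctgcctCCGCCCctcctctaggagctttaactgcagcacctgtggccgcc
Cldn7: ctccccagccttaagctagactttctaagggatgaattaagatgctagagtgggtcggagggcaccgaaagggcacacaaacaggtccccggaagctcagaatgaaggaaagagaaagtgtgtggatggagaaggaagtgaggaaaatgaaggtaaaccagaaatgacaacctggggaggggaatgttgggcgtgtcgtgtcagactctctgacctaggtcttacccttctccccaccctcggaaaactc
Cldn4 held 1 GGGCGG on the reverse strand, and this Cldn7 window held none of the 4 motifs. A second RefSeq start of Cldn7, whose window at chr11:69855997-69856246 overlaps an annotated exon and is not printed, held 1 GGGCGG. Genes on the opposite strand overlap Cldn7 (Elp5) and Cldn3 (Wbscr25), and whether the counting kept strand is not given in the sources used here, so reads of such pairs may be shared.

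Hormone and tuft cells had Cldn18 and Cldn7 together. In dataset 2 the ECL-like cells, which release histamine, had 177.4 and 166.1 CPM of Cldn7, 46.6 and 56.5 of Cldn3 and 390 and 470 of Cldn18. The D-like cells, which release somatostatin, had 221 and 232 of Cldn7, 126 and 118 of Cldn3 and 474 and 386 of Cldn18, with Cldn4 at 114 and 19.7 and Cldn23 at 44.2 and 19.7. Of the 23 Cldn4 UMIs 14 were in 1 cell. The X/A-like cells, which release ghrelin, had 250 and 230 of Cldn7, 30.4 and 17.7 of Cldn3, 47.3 and 38.99 of Cldn23 and 648 and 606 of Cldn18. The tuft-like cells, which are chemosensory, had 235 and 336 of Cldn7, 11.03 and 70.5 of Cldn3 and 989 and 1087 of Cldn18. That cluster also held stromal markers (4 of 5 detected, 1276 CPM summed) and smooth muscle markers (3 of 3, 793 CPM) beside 4727 CPM of its tuft markers, and their part in these levels was not tested. Cldn7 thus lay above 160 CPM in all 8 pools, against at most 1.56 CPM in any pool of the 6 gastric types of that dataset.

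The same cell held both genes in 46 of 53 ECL-like, 29 of 31 D-like, 28 of 29 X/A-like and 25 of 32 tuft-like cells. Cldn18 made up 63.2%, 47.4%, 64.5% and 73.6% of claudin UMIs in these clusters. Dataset 1 held the same pairing in the 24 endocrine-like cells of cluster 9, all 24 with both genes, at 302 and 168 CPM for Cldn7, 180 and 116 for Cldn3 and 653 and 570 for Cldn18. In the tuft-like cluster of dataset 1, 6 of 12 cells held both, with Cldn7 at 54.5 and 138 CPM, Cldn3 at 145 and 61.4 and Cldn18 at 1218 and 1106. That cluster had a median of 6634.5 UMIs a cell, and 4 of its 12 cells had no Cldn18 UMI. The number of claudins per cell after thinning was 2.35 to 3.22 in the endocrine-like clusters and 2.64 in the tuft-like cells of dataset 2. These clusters were not in the fits of cell types, and no test is given for them.

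Outside the epithelium claudin counts were low. Endothelial-like cells had Cldn15, with 14 UMIs in 10 of 15 cells of dataset 1 (46.7 and 117 CPM) and 9 UMIs in 5 of 9 cells of dataset 2 (36.0 and 196 CPM, 5 of the 9 UMIs in 1 cell), while Cldn3 and Cldn7 were at 0 in both. Their leading genes were Plvap, Kdr and Flt1, with hemoglobin genes in dataset 1. Cldn1 (chr16:26175392-26190596, minus strand) was near absent, with 1 UMI in dataset 1 and 9 in dataset 2, of which 7 were in 1 macrophage-like cell. Macrophage-like cells of dataset 1 had 0 claudin UMIs in 8 cells.

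The claudin totals and shares above leave out claudins outside the list, of which Cldn8 was the most abundant. Cldn8, a sealing claudin of the distal kidney tubule, had 1832 UMIs in 1094 cells of dataset 2, more than any claudin but Cldn18 and Cldn12, and was highest in parietal cluster 1 at 30.1 CPM. In dataset 1 it had 153 UMIs and was also highest in parietal cells, at 24.7 CPM. Cldn22 had 409 UMIs in dataset 2, with 8.70 CPM in neck cluster 0. Cldn6 and Cldn9, known from embryonic epithelia and the inner ear, had 77 and 19 UMIs and were highest in X/A-like cells at 55.3 and 27.7 CPM, and in dataset 1 both were highest in the endocrine-like cluster at 25.4 and 13.9 CPM. Cldn10 had 61 UMIs, with 4.51 CPM in chief cells, and Cldn34c1 had 52.

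The genes most like each claudin were found from Pearson's r of log2(CPM + 1) over the 20 clusters of dataset 2, among 12078 genes with at least 20 CPM in some cluster. Clusters share libraries and depth, so r is a description. For Cldn18 they were Elovl7, a fatty acid elongase (r = 0.985, and 0.956 over the 15 clusters of dataset 1), Myo5b, a vesicle motor (0.985 and 0.769), and St14 (0.98 and 0.856). Cldn3 was most like St18 (0.992), Pak5 (0.990) and Gpr153 (0.989), Cldn7 like Serping1 (0.964), Rab3b (0.960) and St18 (0.960), and Cldn4 like Eya1 (0.997), Cacng2 (0.994) and Caskin1 (0.990). In dataset 1 these 9 pairings had r of −0.244 to 0.761. For Cldn2 the genes were Cym (0.872, and 0.321 in dataset 1), Krt5 (0.871 and 0.6) and Krt14 (0.866), all highest in cluster 11. In that cluster 1 cell with 228 Krt5 UMIs had 0 of Cldn2. The 7 cells there with at least 5 UMIs of Cldn2, Cldn3, Cldn7 and Cldn15 together had 0 of Krt5. For Cldn12 they were Lpp (0.951 and 0.240), Rassf7 (0.946 and 0.586) and Slc35b3 (0.940 and 0.0095). For Cldn15 they were Iqsec2 (0.945 and −0.055), C130074G19Rik (0.941 and 0.799) and Jam2 (0.937 and 0.369), an endothelial junction molecule. For Cldn23 they were the immediate early transcription factors Fosl1 (0.885 and 0.149) and Egr2 (0.837 and 0.316), and 4930526A20Rik (0.825 and 0.0019). Most of these likenesses were much weaker in dataset 1. Those of Cldn1, Dnase1l3, Il1rl1 and Cd22, rest on the 1 macrophage-like cell.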

How the data were processed

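Quartz-Seq2 libraries were made from single cells sorted into plates of 384 wells, 6 plates in dataset 1 and 12 in dataset 2. The authors deposited raw UMI counts per gene and well for each plate, count tables of the cells that they kept (at least 2500 detected genes) and a table of cluster labels. Per the methods and the submitters' processing notes, reads were demultiplexed with bcl2fastq 2.20.0.422, processed with Drop-seq tools, aligned to GRCm39 with STAR against Gencode M27 and clustered with Seurat. Plates held 3054370 to 5346035 UMIs in dataset 1 and 10540256 to 12850942 in dataset 2, of which kept cells held 86.8% and 98.8%. Sums over a type carry counting error as well as the spread between pools, and intervals and limits for a count of 0 cover counting error only. They take UMIs as independent, which does not hold where a few cells carried most of them.

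Counts were summed per cell type or cluster and pool and fitted with edgeR 4.0.16 in R 4.3.3 (filterByExpr, TMM, estimateDisp, glmQLFit, glmQLFTest), 1 fit per dataset for the named types and 1 for all clusters compared, with Benjamini-Hochberg adjustment over all genes tested. The pools came from the same mice in every type, so the pool pairs the types: deviations from the type means correlated at a median of 0.132 over 15 pairs of types in dataset 2 (0.0689 to 0.411) and at −0.0287 to 0.0533 over 21 pairs in dataset 1. Alternatives were a replicate block for the pool, DESeq2 1.42.0, RLE size factors, no filter on low counts, cells thinned to 10000 UMIs, the deepest 5% of cells left out, each pool left out, and, chosen after seeing the data, library totals without TMM and leaving out cells with Muc2 or Olfm4. A pool left out was left out of the types compared only, so the lone sum of a type was assumed to vary like the other types.

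No doublet caller was run, since plates were sorted with a singlet gate. Named genes were all 9 measured claudins, the 2 called genes with the largest rise and fall of each junction list per comparison, and the 3 genes most like each claudin. Some genes that this rule names are not reported here. Mpdz, Nectin1 and Cgnl1 are named without a fold where 1 of the types compared had 0 UMIs. The members and lists were chosen with earlier results of these data known. Sequences came from RefSeq promoter windows (GRCm38.p6), positions from Gencode M39 (GRCm39). Clusters that the study did not name and that were called "like" a type had at least 1 of its markers among their 10 leading genes and 3 or more detected. Python 3.11.15, numpy 2.4.6, scipy 1.17.1 and matplotlib 3.10.9 were used.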

Additional observations from a re-analysis of the deposited data

Results flagged for a closer look

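The counts also hold wells that the authors did not keep, which had under 2500 detected genes except for 1 well of dataset 1, and claudin transcripts appeared there, in data that no comparison used. In dataset 1, 1813 such wells held 843 claudin UMIs among 3016503, or 279 CPM, beside 1268 CPM in the kept cells. In dataset 2, 615 wells held 490 claudin UMIs among 1654145, or 296 CPM, beside 1041 CPM in the kept cells.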

How the results depend on the processing

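Of 565 fold values under alternatives for 65 claudin folds, 491 kept direction and side of the threshold, 45 lost the call, 15 gained it and 14 reversed. The counts of called claudins moved by over 1.5 times as follows, and the cause was not tested except that fewer cells, pools or genes enter some alternatives. DESeq2 called 2 for pre-pit against isthmus, 0 for neck against isthmus, 0 for neck against cluster 4-15, 1 for antrum against corpus pit and 2 among isthmus clusters. With no filter on low counts there were 1 for mature pit against pre-pit, 2 for neck against isthmus, 5 for corpus pre-pit and 5 for neck against cluster 4-15, 6 for parietal cells there and 1 for antrum against corpus pit. Thinned cells gave 2 for pre-pit against isthmus, 0 for neck against isthmus, 2 for parietal against isthmus, 1 for corpus pre-pit and 1 for neck against cluster 4-15, 2 among isthmus clusters, 1 among neck clusters and 4 for enterocyte-like against antrum mature pit cells. Library totals gave 3 for chief against neck, RLE size factors 1 among neck clusters, and leaving out Muc2 or Olfm4 cells 0 for neck against cluster 4-15 and 0 for antrum maturation. The replicate block gave 1 for mature pit against pre-pit, and apart from the Cldn2 and Cldn15 calls of neck against cluster 4-15 its effect stayed within 1.5 times. Leaving out the deepest 5% of cells moved 0 of 16 counts.

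With 1 pool left out, the counts ran from 0 to 2 for pre-pit against isthmus and corpus pre-pit against cluster 4-15, from 0 to 4 for neck and 0 to 3 for parietal cells against cluster 4-15, from 0 to 1 for antrum maturation, corpus maturation in dataset 1 and parietal cluster 8 against 1, and stayed at 0 for corpus maturation in dataset 2, neck against isthmus, antrum against corpus pit, the interaction and the neck clusters, at 1 for chief against neck and parietal against isthmus, at 2 for isthmus clusters and at 6 for enterocyte-like cells.

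Folds reversed under library totals for Cldn12 (−0.031) in pre-pit against isthmus, Cldn18 (−0.045) in mature pit against pre-pit, Cldn15 (−0.41) in chief against neck and Cldn18 (−0.24) in parietal against isthmus. Thinning reversed Cldn12 in parietal against isthmus (0.068) and Cldn18 in antrum against corpus pit (−0.13), and Cldn12 in neck against cluster 4-15 reversed to 0.039 without the deepest cells and to 0.036 without Muc2 or Olfm4 cells. Leave-one-out ranges that crossed 0 were −0.30 to 0.62 for Cldn23 in neck against isthmus, −0.76 to 1.15 for Cldn15 in chief against neck, −0.11 to 0.98 for Cldn12 in corpus pre-pit, −0.37 to 0.33 for Cldn12 and −0.31 to 8.42 for Cldn15 in neck and −0.55 to 0.52 for Cldn12 in parietal cells, all against cluster 4-15. Of 264 shares of cells with a claudin UMI under other thinning or at least 2 UMIs, 137 stayed within their interval and 127 moved, so these shares depend on the depth and the UMI minimum used. With 2 pools a dataset, a difference that missed the threshold is not shown to be absent.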
